A study of Drosophila melanogaster with 3 samples.

Results

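The cytosolic ribosomal protein genes encode the proteins of the ribosome that translates messenger RNA in the cytoplasm. They were taken as the protein-coding genes of the Ensembl annotation whose symbol begins with RpL or RpS and a number, together with RpLP0, RpLP1, RpLP2 and sta. This gave 92 of 13968 protein-coding genes, with 39 for the small subunit (RpS genes and sta, the fly RpSA) and 53 for the large subunit (RpL and RpLP genes). A gene was chosen by its symbol alone, so near relatives with restricted or divergent roles are included, such as RpL7-like and RpL24-like, which are named after yeast factors of ribosome assembly as much as after ribosomal proteins.

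The experiment was chromatin immunoprecipitation followed by sequencing (ChIP-seq), which lists the regions of the genome where a protein sits on chromatin. It used whole Drosophila melanogaster prepupae, males and females pooled, from a stable transgenic line in which GFP is joined to the C-terminal end of CG4318, and GFP was the antibody's target. There were 3 biological replicates of this 1 group, all carrying the fusion. The age given with the samples, 48 days, is longer than any fly takes to become a prepupa, so the samples are described by stage. A possible control experiment is named in the labels and was not analysed here. Whole animals mix all cell types, so a region may be occupied in some of them and not in others, and the lists cannot tell these apart.

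A ribosome is built of a small subunit, which reads the messenger RNA, and a large subunit, which joins amino acids. Its proteins are needed in nearly equal amounts, and in Drosophila the loss of 1 copy of many of their genes slows growth and gives the short, thin bristles known as the Minute phenotype. The promoters of these genes are known for a pyrimidine-rich start element, the TCT initiator, in place of the common initiator, and the factors DREF, M1BP and TRF2 have been linked to them. Many of the genes also carry small nucleolar RNAs in their introns, which guide the modification of ribosomal RNA.

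The sequences shown first are 4 of those under the peaks that met the reproducibility threshold at the promoters of these genes, since they show what the listed sites look like. Each is read 5′ to 3′ on the strand of the gene, from the Release 6 assembly (dm6), and takes 50 bp on either side of the summit, the position of highest signal within the peak. At RpS21 it is the 60 bp that lie before the first exon. Capitals mark unbroken runs of 8 or more A or T. The positions were chr3R:20821966-20822066 for RpS20 and chr3L:13023020-13023120 for RpS12, both on the plus strand. They were chr2L:2856010-2856069 for RpS21 (plus strand) and chr4:67397-67497 for RpS3A (minus strand).
RpS20: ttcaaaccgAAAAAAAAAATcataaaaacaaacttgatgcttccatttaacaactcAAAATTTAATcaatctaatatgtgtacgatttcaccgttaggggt
RpS12: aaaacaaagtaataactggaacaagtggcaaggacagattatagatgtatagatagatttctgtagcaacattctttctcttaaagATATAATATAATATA
RpS21: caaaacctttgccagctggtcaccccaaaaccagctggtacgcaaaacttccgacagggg
RpS3A: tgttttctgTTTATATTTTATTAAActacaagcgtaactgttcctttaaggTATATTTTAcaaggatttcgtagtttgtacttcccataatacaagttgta

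All of these windows except that of RpS21 were rich in A and T. The longest run of A and T was 16 bases at RpS3A, 15 at RpS12 and 11 at RpS20, whereas the RpS21 window held no run of 8. GC content over the same length at the summit was 19.8% at RpL8, 18.8% at RpL23, 26.7% at RpS12, 27.7% at RpS3A, 28.7% at RpS20 and 59.4% at RpS21. The median over these 6 peaks was 27.2%, against 29.7% over the 1204 reproducible peaks at promoters of any protein-coding gene. A promoter with no listed region could be as rich in A and T. The stretches of the same length before the start of RpL10Aa (chr3R:15037265-15037365, plus strand) and of RpL13A (chr3R:5624373-5624473, plus strand) are shown for contrast, because neither gene had a candidate region within 500 bp of its start in any list.
RpL10Aa: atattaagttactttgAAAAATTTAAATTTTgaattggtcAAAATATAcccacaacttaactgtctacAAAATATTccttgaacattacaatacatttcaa
RpL13A: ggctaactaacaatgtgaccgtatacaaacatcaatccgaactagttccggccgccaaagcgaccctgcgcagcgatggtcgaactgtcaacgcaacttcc

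The deposited lists rank regions by a signal score on a scale that is not stated, so scores are compared within 1 list and ranks between lists. Each replicate and the pooled data have 30000 candidate regions, most of them weak. The 5056 reproducible peaks are the 5056 strongest pooled regions, with scores from 108.7 to 2606, and the 5056 strongest regions of each replicate are called its top list. With no read counts deposited, the depth of each library is unknown. Replicate 3 stood apart from the other two at promoters: 72.5% of the 1204 reproducible promoter peaks overlapped any candidate of replicate 3, against 99.3% for replicate 1 and 99.7% for replicate 2. Each result is therefore also given by replicate.

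At the threshold of the reproducible list, the share of ribosomal protein promoters with a peak did not exceed that of promoters in general. Of the 92 genes, 6 had a reproducible summit no more than 500 bp from a transcription start site (TSS), or 6.52% (95% Wilson interval 3.02 to 13.5), against 9.39% of all protein-coding genes. They were RpS20, RpS12, RpS21 and RpS3A among 39 small-subunit genes and RpL8 and RpL23 among 53 large-subunit genes. All 6 summits were upstream of the gene. Their median signal score was 205.8, with a range from 112.0 to 372.3, against a median of 242.8 over all 1204 promoter peaks and 193.3 over all 5056 peaks. Few ribosomal protein genes had a very strong promoter peak: 1 of 92 (1.09%), RpS20, had a promoter summit among the 1000 strongest pooled regions, against 3.6% of all protein-coding genes.

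RpS20 (FBgn0019936), a protein of the small subunit's head, had the strongest of these peaks, with a score of 372.3 and rank 890. Its summit at 20822016 on 3R was at -165 bp from the TSS, in the intergenic stretch that RpS20 shares with the divergent gene CG17271. Replicate 1 listed it with a score of 150.7 at rank 991 and replicate 2 with 134.0 at rank 966, while replicate 3 listed no overlapping region. RpS12 (FBgn0286213), which is known in Drosophila for a part in competition between cells, had a summit at 13023070 on 3L, -282 bp from its TSS, with a score of 166.1 at rank 3048. It too was listed in replicate 1 (64.0, rank 3702) and replicate 2 (64.8, rank 3144) and not in replicate 3. Both peaks were thus at like ranks in the replicates that held them, and each lay within 500 bp of the TSS of a second gene, CG17271 or Adk2.

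RpS21 (FBgn0015521) encodes a small-subunit protein whose loss is known to cause overgrowth of blood-forming tissue in fly larvae. Its summit at 2856060 on 2L was at -10 bp from the nearer of its 2 TSSs, the closest of the 6, with a score of 122.9, rank 4413 and a −log10 q-value of 2.99. This peak also lay within 500 bp of a TSS of the divergent gene CG3104. The scores were 38.0 in replicate 1, 67.8 in replicate 2 and 13.4 in replicate 3, at ranks 6805, 2956 and 29789. Only replicate 2 had it in its top list, and replicate 3 had it near the end of its list. RpS3A (FBgn0017545), the 1 ribosomal protein gene on chromosome 4, had a summit at 67447, -240 bp from its TSS, with a score of 112.0 and rank 4896, close to the end of the reproducible list. It was below the top list of replicate 1 (47.5, rank 5287) and of replicate 2 (36.4, rank 6391) and absent from replicate 3.

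RpL8 (FBgn0261602), a protein close to the catalytic centre of the large subunit, had a summit at -154 bp from its TSS on 3L, with a score of 252.3 and rank 1727. The replicates gave it 82.8, 102.7 and 62.6, at ranks 2616, 1555 and 1427. RpL23 (FBgn0010078), a protein at the face between the subunits, had a summit at 22854061 on 2R with a score of 245.5 and rank 1803. It was at -322 bp from the TSS of RpL23 and 234 bp from that of CG13531, which was nearer. Its scores were 78.5, 90.8 and 65.2, at ranks 2813, 1912 and 1342. RpL8 and RpL23 were the only ones of the 6 in the top list of all 3 replicates, or 33.3%, against 58.1% of all 1204 promoter peaks. Overlap with any replicate 3 candidate was found for 3 of the 6.

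**Figure D1:**
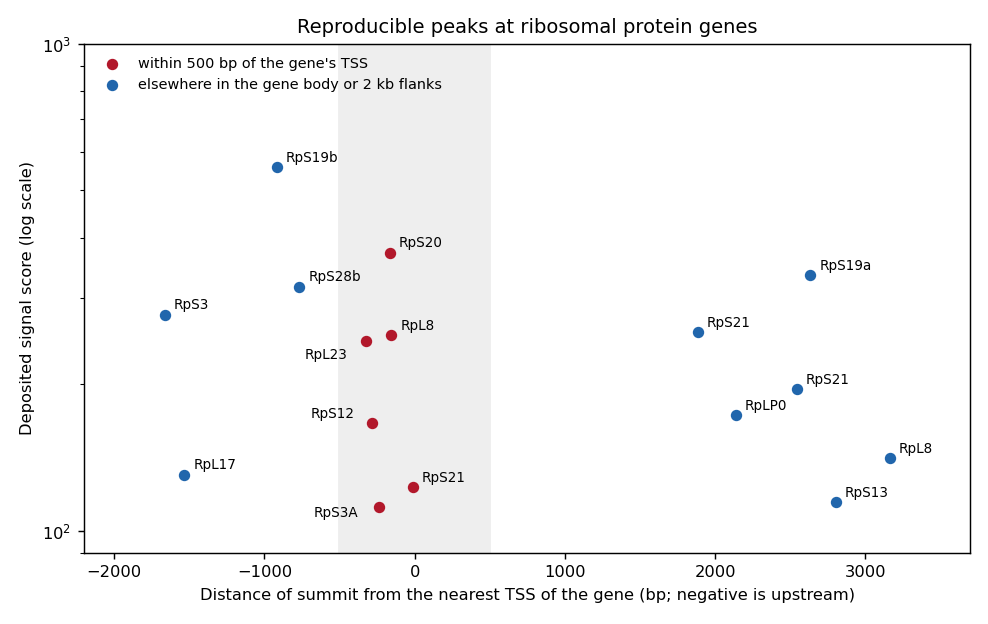
The 16 reproducible peaks described in or near ribosomal protein genes, by distance of the summit from the nearest TSS of the gene in bp (horizontal, negative is upstream) and deposited signal score (vertical, log scale). The 6 promoter peaks in red lie in the shaded 500 bp on either side with scores from 112.0 to 372.3, and the highest plotted point outside it, 557.5 near RpS19b, lies upstream of the gene.

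Further reproducible peaks lay in the flanks of these genes, mostly nearer to the start of a neighbour. Of those described below, only the peak near RpS19b (557.5) scored above the RpS20 promoter peak (372.3). A reproducible summit lay inside the gene or within 2 kb of either end for 14 of 92 genes (15.2%, interval 9.29 to 23.9), against 21.7% of all protein-coding genes. Not 1 of these summits was inside the annotated span of a ribosomal protein gene: 0 of 92 genes held 1 (interval 0 to 4.01), against 10.2% of all protein-coding genes. The spans are short, with a median gene length of 1325 bp against 2164 bp, and together covered 133 kb, in which the pooled list had 6 summits, or 4.52 per 100 kb, against 21.8 per 100 kb of the arms. Replicates 1, 2 and 3 had 19, 12 and 4 candidate summits there, or 14.3, 9.03 and 3.01 per 100 kb. The arms include sequence between genes, and the rate inside the spans of all protein-coding genes is not given. The lower rate therefore cannot be called particular to ribosomal protein genes.

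Of the 8 genes listed through their flanks alone, the 7 described here had peaks that were mostly closer to the start of another gene than to their own. The peak 916 bp before RpS19b (557.5, rank 431) was in an intron of CG5854. That 1526 bp from RpS19a (334.7, rank 1095) was 193 bp from the TSS of mthl1, and both RpS19 peaks were held by the top lists of replicates 1 and 2 but by no list of replicate 3.

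The peak 767 bp before RpS28b (317.2, rank 1200) was 106 bp from the TSS of l(1)G0320 and in all 3 top lists. Near RpS3, a Minute gene that also acts in DNA repair, the peak (277.6, rank 1500) was 1663 bp away in an intron of Sec13, a nuclear pore and vesicle coat protein. RpLP0, the base of the ribosomal stalk, had a peak 744 bp past its end (172.8, rank 2910), with the nearest TSS that of Sfp79B at 2091 bp. The peak 1684 bp from RpS13 (114.4, rank 4800) was in an intron of CG7627. RpL17 was the exception among these: its own TSS, 1532 bp away, was the nearest to the peak (130.3, rank 4130), which lay in an intron of lncRNA:CR44895. When each summit was given only to the gene with the nearest TSS, 6 of the 14 genes remained. RpS21 and RpL8 also had flank peaks, 2 in an intron of CG2991 (255.7 and 195.2) past RpS21, and 1 in the 5′ UTR of dos (140.8) past RpL8.

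Among weaker regions the share of ribosomal protein promoters differed sharply by replicate. A candidate summit lay within 500 bp of a TSS of 46 of 92 genes in replicate 1 (50%, interval 40.0 to 60.0), against 31.7% of all protein-coding genes. Replicate 2 also listed 46 genes (50%), against 30.8%. Replicate 3 listed 10 (10.9%, interval 6.01 to 18.9), against 18.6%. So replicates 1 and 2 were above the share of all genes and replicate 3 below it. The small-subunit genes gave 22, 20 and 3 of 39 in replicates 1, 2 and 3, and the large-subunit genes 24, 26 and 7 of 53, so replicate 3 listed the fewest of both subunits.

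The pooled list lay at the level of all genes. It had a summit within 500 bp of 21 of 92 genes (22.8%, interval 15.4 to 32.4), against 22.5%. In the top lists alone, 16 genes (17.4%) were listed in replicate 1 against 12.4% of all genes, 18 (19.6%) in replicate 2 against 12.7%, and 2 (2.17%) in replicate 3 against 6.87%. The excess was in the middle of the lists and not among the very strongest regions. Within the 1000 strongest regions of replicate 1, 1 gene was reached (1.09%, against 3.85% of all genes), while within the 10000 strongest it was 34.8% against 18.7%. Replicate 2 gave 35.9% against 18.4% at that depth, and replicate 3 gave 3.26% against 9.31%. The depth of each library and the makeup of each collection of animals are not in the files, and their part in the difference between replicates was not tested.

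**Figure D2:**
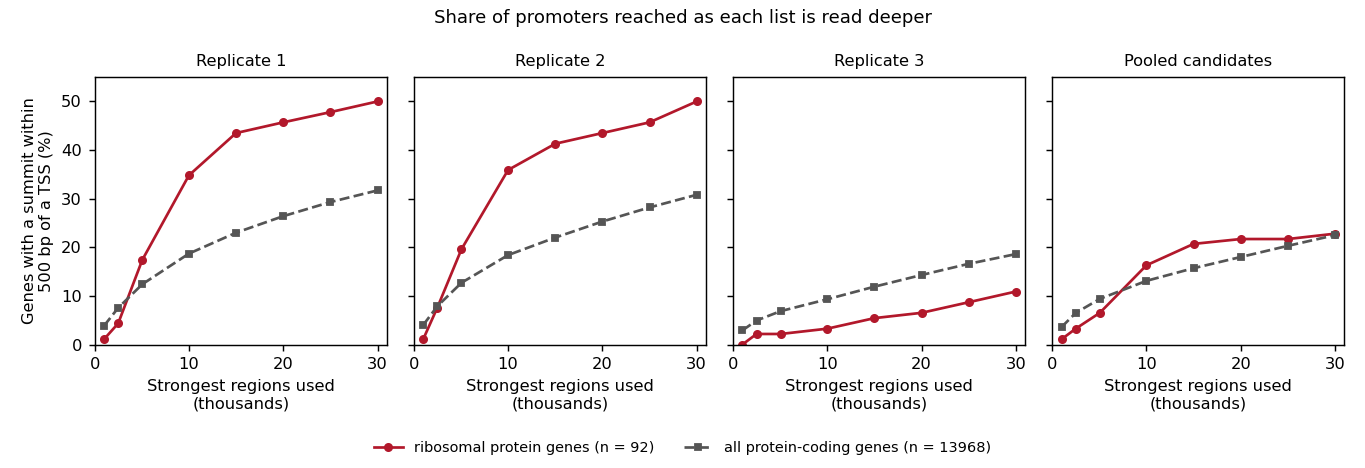
Share of genes (vertical, %) with a summit within 500 bp of a TSS among the strongest regions of each list (horizontal, in units of 1000 regions), for the 92 ribosomal protein genes (red) and 13968 protein-coding genes (grey, dashed). At 10000 regions the red line stands at 34.8% and 35.9% in replicates 1 and 2, above 18.7% and 18.4%, and at 3.26% in replicate 3, below 9.31%.

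Replicates 1 and 2 agreed on many of the same genes. Both listed 32 of 92 (34.8%, interval 25.8 to 44.9), against 21.7% of all protein-coding genes. In 24 of the 32 (75%) any promoter summit of replicate 1 lay within 100 bp of any of replicate 2, against 82.9% of the 3036 genes listed in both. Weaker summits counted here, so the strongest summits of a gene need not be that close. All 3 replicates listed 7 genes (7.61%), against 9.02%: RpL5, RpL8, RpL15, RpL17, RpL23, RpS15 and RpS21. At least 1 replicate listed 61 genes (66.3%), against 47.1%. Of the others, 12 were listed in replicate 1 alone, 14 in replicate 2 alone and 1, RpL22-like, in replicate 3 alone. The remaining 31 genes (33.7%, against 52.9% of all genes) had no candidate within 500 bp in any of the 5 lists. These last genes were named after their values were seen, as were those of the next paragraphs that lie outside the pooled list.

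The regions shared by replicates 1 and 2 were often missing from the pooled list. A region in the top lists of both replicates lay within 500 bp of 11 of 92 genes (12%), against 10.4% of all protein-coding genes. For 7 of these 11 genes (63.6%, interval 35.4 to 84.8) the region overlapped nothing in the pooled list, against 22.9% of the 1446 such genes overall. All 7 also had no overlapping region in replicate 3, as did 312 of the 331 genes overall whose region was absent from the pooled list. Over all regions in both top lists, 7.71% of 4020 were absent from the pooled list, and over those at promoters 17.6% of 1221. Absence from the pooled list thus went with absence from replicate 3 at these 7 genes, although RpS20 and RpS12 were in the pooled list without a region in replicate 3. How the pooled list was made from the replicates is not stated, and the part of that step was not tested.

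The 7 genes were all but 1 of the large subunit. RpL34b had scores of 136.4 in replicate 1 and 110.7 in replicate 2 (ranks 1203 and 1387), with summits at -133 and -147 bp. RpL32, known as rp49 and much used as a reference gene for RNA measurements, had 132.2 and 114.4 (ranks 1258 and 1292), at -177 and -138 bp. The replicate 1 summit was nearer to the TSS of the divergent gene CG7943. RpL7 had 120.3 and 108.2 (ranks 1487 and 1425), with summits close together at 10201063 and 10201050 on 2L, both inside the gene. They were at -37 and 46 bp from the nearer of its 2 TSSs, which was a different TSS for each. These ranks were below those of the RpS20 peak in both replicates and above those of RpL8 and RpL23, all of which the pooled list held.

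RpS27 was at ranks 4226 and 1857 in replicates 1 and 2, RpL19 at 3638 and 4636, RpL28 at 4252 and 2731, and RpL10Ab at 4278 and 3173. RpL28 shares its upstream stretch with eIF1, a translation initiation factor whose TSS was the nearest to the replicate 1 summit. That summit was at -262 bp from a TSS of RpL28, and the replicate 2 summit was at -85 bp. The replicate 1 summit of RpL10Ab was nearest to the TSSs of CG11597 and CG5946. The other 4 of the 11 genes, RpS20, RpS12, RpL8 and RpL23, were in the pooled and reproducible lists. The windows around the replicate 1 summits upstream of RpL34b (chr3R:9401309-9401409) and RpL32 (chr3R:30046288-30046388), both on the minus strand and with capitals as above, are shown because they had the highest scores in replicate 1 among the 7 genes.
RpL34b: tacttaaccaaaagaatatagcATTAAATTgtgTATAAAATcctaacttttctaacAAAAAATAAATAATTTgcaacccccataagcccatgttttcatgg
RpL32: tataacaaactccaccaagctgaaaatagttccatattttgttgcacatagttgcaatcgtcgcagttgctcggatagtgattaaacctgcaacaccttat

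**Figure D3:**
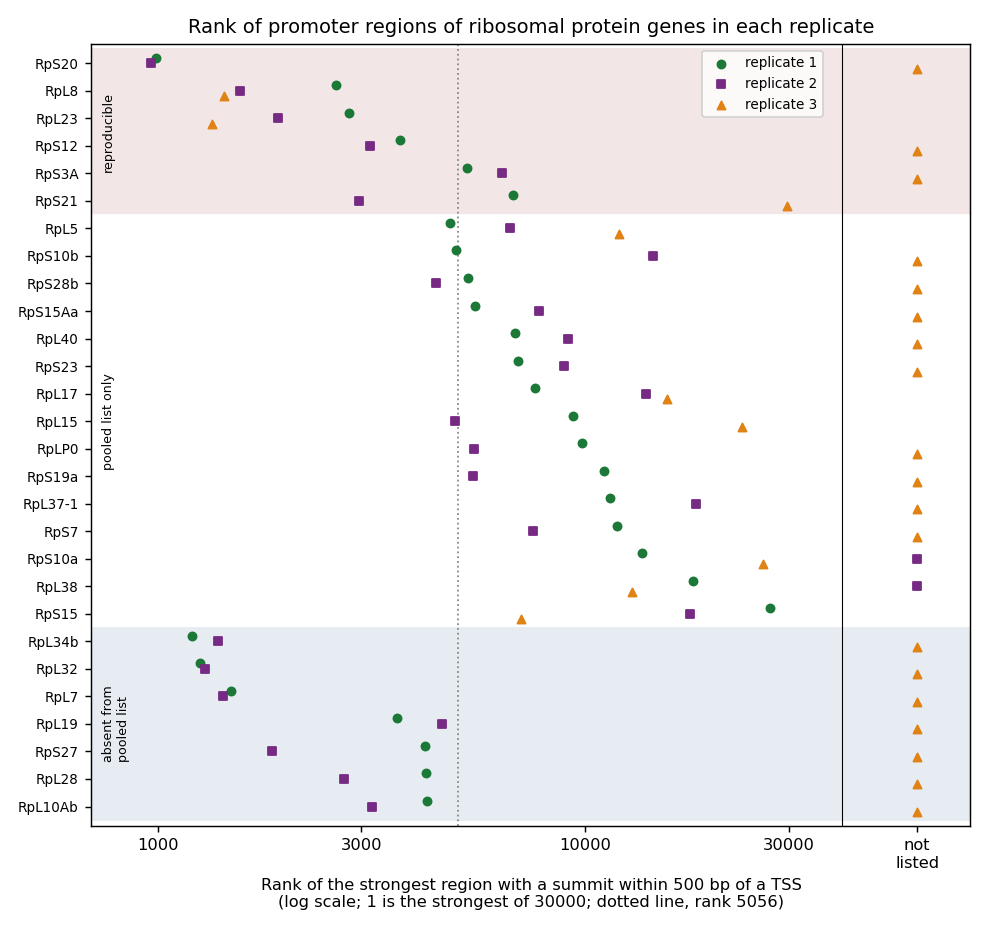
Rank in each replicate's list (horizontal, log scale, 1 is the strongest of 30000) of the strongest region within 500 bp of a TSS, for the 21 ribosomal protein genes in the pooled list and the 7 that both top lists held and the pooled list lacked. Green circles, purple squares and orange triangles are replicates 1, 2 and 3, the dotted line is rank 5056, and points at the far right were not listed. The 7 genes in the lowest band are left of the dotted line in replicates 1 and 2 and unlisted in replicate 3.

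Below the reproducible threshold, the next pooled region was that of RpS28b, with a summit at -72 bp and a score of 107.3 at rank 5128, just under the lowest reproducible score of 108.7. It was followed by RpL5, which carries the 5S ribosomal RNA (98.6, at -60 bp), RpL15 (91.1, at -263 bp), RpS10b (86.9, at -50 bp) and RpS15Aa (86.0, at -1 bp). RpS23, a protein of the decoding centre, had 82.9 at -258 bp and RpLP0 had 68.6 at 3 bp. RpL17 (63.2, at -329 bp), RpS15 (59.0, at -327 bp) and RpS7 (58.7, at -22 bp) completed the 10 strongest after the 6 reproducible peaks. The last 5, RpS19a, RpL40, RpS10a, RpL38 and RpL37-1, had scores from 57.1 down to 33.1. All distances are from the nearest TSS of the gene. The summits given for RpL5, RpL17 and RpS7 lay inside the gene, so their negative distances are from a TSS within it.

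The 28 pooled candidates within 500 bp of these genes rested on replicates 1 and 2. Replicate 1 listed an overlapping region at 28 of 28, replicate 2 at 26 and replicate 3 at 11 (39.3%). Over all 3581 pooled candidates at promoters the shares were 79.9%, 77.2% and 55.3%. Like RpL8 and RpL23, RpS15 stood higher in replicate 3 (23.4, rank 7101) than in replicate 1 (13.3, rank 27201) or replicate 2 (18.4, rank 17648). RpL38 had rank 12869 in replicate 3, rank 17944 in replicate 1 and no region in replicate 2. RpL5 was listed in each, with scores of 51.4, 35.1 and 19.3 at ranks 4841, 6688 and 12012.

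The candidates also lay closer to the start site than was usual in replicates 1 and 2. The strongest promoter summit of each gene had a median position of -67 bp in replicate 1, against -157 bp for all genes, -140 bp in replicate 2, against -176 bp, and -156 bp in replicate 3, against -145 bp. Within 100 bp of a TSS lay 23 of 46 summits in replicate 1 (50%, against 20.8% for all genes) and 17 of 46 in replicate 2 (37.0%, against 16.9%), but 2 of 10 in replicate 3 (20%, against 16.5%). The order of the medians and shares was the same in replicates 1 and 2, and no such difference stood out among the 10 genes of replicate 3. With 1 TSS per gene, the 100 bp before the TSS held a summit at 16.3% of ribosomal protein genes in replicate 1 and 18.5% in replicate 2, against 4.42% and 3.55% of all genes.

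**Figure D4:**
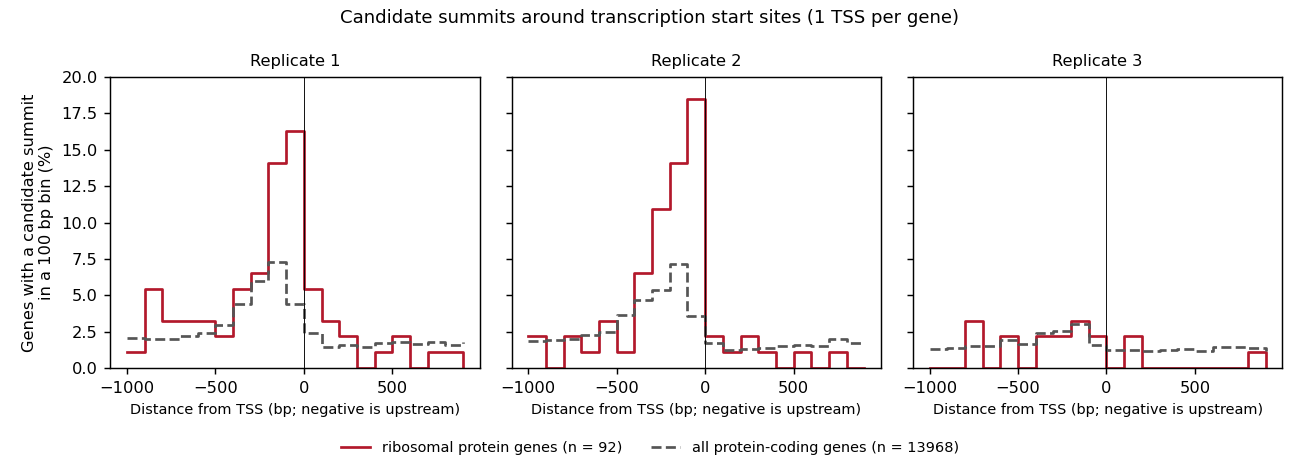
Share of genes (vertical, %) with a candidate summit in each 100 bp bin around 1 TSS per gene (horizontal, bp, negative is upstream), for the 92 ribosomal protein genes (red) and 13968 protein-coding genes (grey, dashed), by replicate. In the bin just before the TSS the red line reaches 16.3% and 18.5% in replicates 1 and 2, above 4.42% and 3.55%, and 2.17% in replicate 3, near 1.59%.

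The summits near the start differed in base composition from those farther out. Within 100 bp of a TSS the summit with 50 bp on either side had a median GC content of 50.5% at ribosomal protein genes in both replicate 1 and replicate 2, against 38.6% and 35.6% at all genes. For summits farther out, up to 500 bp, it was 28.7% and 29.7%, against 32.7% and 31.7%. Replicate 3 did not have this difference near the start, with 37.1% over 2 summits, against 37.6%, and 30.2% farther out, against 35.6%. The A and T rich windows of RpS20, RpS12 and RpS3A printed above belong to the second kind, and the window of RpS21 to the first. The 100 bp upstream of the TSS had a median GC content of 44.0% in ribosomal protein genes (SD 8.5), against 41.0% in all genes (SD 9.7), and 45.0% in the 32 genes listed in replicates 1 and 2, against 44.0% in the 31 with no candidate.

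Several promoter elements were more frequent at ribosomal protein genes than at genes in general. The promoter was taken as 250 bp before to 50 bp after 1 TSS, 300 bp in all. The DRE, TATCGATA on either strand, to which DREF binds, was in 30.4% of ribosomal protein promoters, against 8.94% of all. The core of motif 1, GGTCACAC on either strand, linked to M1BP, was in 15.2%, against 7.52%, and the E-box CACGTG, a palindrome bound by Myc and its partners, in 10.9%, against 4.25%. TATAAA on either strand was in 45.7%, against 45.3%, and GAGAG on either strand in 16.3%, against 30.2%. The TCT core, CTTTC or CTTTT on the strand of the gene with its C within 5 bp of the TSS, was in 44.6%, against 3.52%. No motif contains another. A match shows only that the letters are present.

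Among the 32 genes listed in replicates 1 and 2, the DRE was in 31.2% and the TCT core in 40.6%, against 38.7% and 48.4% of the 31 with no candidate in any replicate. TATAAA was in 53.1% against 38.7%, and motif 1 in 12.5% against 6.45%. These shares describe small sets, and the DRE and the TCT core were in no larger a share of the listed genes than of the unlisted ones. Of the 6 genes with a reproducible promoter peak, 1 had a DRE, 1 had TATAAA and 3, RpL8, RpS21 and RpS3A, had a TCT core. The 30 bases from 20 before the TSS of RpS3A (chr4:67198-67227, minus strand) show it in capitals, downstream of the summit window printed above.
RpS3A: catacgtcgtcaacgtgattcgacCTTTTc

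Where the genome keeps more than 1 copy of a ribosomal protein gene, the copies were compared. Symbols that are equal apart from a final a or b, -like or -1 and -2 gave 12 families with 25 genes. In 10 of the 12 exactly 1 copy had a promoter candidate in both replicates 1 and 2, in 2 families no copy did, and in 0 did more than 1. That is 10 of 25 genes, beside 34.8% of all ribosomal protein genes and 21.7% of all protein-coding genes, and the same count was not made for other gene families. The listed copies were RpS5a, RpS10b, RpS15Aa, RpS19a, RpS28b, RpL7, RpL10Ab, RpL24, RpL34b and RpL37-1.

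Their partners had no such pair of candidates. RpS19b, known like RpS5b for expression in the germline, was at rank 28241 in replicate 2 alone. RpS5b, RpL10Aa, RpL34a, RpS15Ab, RpS28a, RpL37-2, RpL7-like and RpL24-like were in none of the 3 replicate lists, and RpS28-like was at rank 29987 in replicate 1. RpS10a was the nearest to an exception, with rank 13582 in replicate 1 and 26168 in replicate 3. The 2 families with no copy in both were RpL22 and RpL22-like, and RpS14a and RpS14b, which lie side by side on X. This grouping was made after the values were seen, and reads from near-identical copies may have been shared or dropped in alignment, which is not described in the sources used here.

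Among arms with more than 1 of these genes, X had the highest share in replicate 1, a comparison made after the values were seen: 13 of 15 (86.7%) had a promoter candidate, against 38.3% of protein-coding genes of X. In replicate 2 it was 9 of 15 (60.0%, against 33.6%) and in replicate 3 it was 1 (6.67%, against 14.4%), while the reproducible list had 0 of 15, against 11.0%. The other arms with more than 1 of these genes gave 35.0% to 50% in replicate 1, against 27.6% to 33.5% of their genes. In replicate 2 X was not the highest: 3L gave 64.3%, against 33.2% of its genes. Replicate 3 gave the lowest share of ribosomal protein genes in each class when genes were split by their number of annotated TSSs. For genes with 1 TSS the shares of ribosomal protein genes were 42.6%, 44.7% and 12.8% in replicates 1, 2 and 3, against 23.9%, 24.1% and 15.4% of all genes of that kind. With 2 TSSs they were 48.3%, 62.1% and 6.9%, against 46.1%, 42.2% and 22.9%, and with 3 or more they were 75%, 43.8% and 12.5%, against 70.3%, 66.0% and 38.2%. In replicate 1 the excess was thus clear at genes with 1 TSS and small at the others. In replicate 2 it was clear at genes with 1 TSS and with 2 TSSs, and turned round at the 16 genes with 3 or more. The reproducible list gave 5 of 47 genes with 1 TSS (10.6%), against 5.8%. It gave 1 of 29 genes with 2 TSSs (3.45%), against 14.2%, and 0 of 16 genes with 3 or more, against 30.9%. The side on which ribosomal protein genes fell thus depended on the number of TSSs.

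Neighbouring parts of the translation machinery were compared by the same count. Among all protein-coding genes 9.39% had a reproducible promoter peak. Of 43 translation factor genes, 3 had a reproducible promoter peak (6.98%), led by eIF6, which keeps the subunits apart (1444.8, rank 27), eIF5B, which joins them (301.6), and the termination factor eRF3 (265.9). Of 43 ribosome biogenesis genes 1 did (2.33%), NHP2 of the H/ACA particles (251.2), and of 26 genes of RNA polymerases I and III 4 did (15.4%). The strongest of these were Bdp1 (1040.3, rank 76) and Brf (593.2), parts of the factor TFIIIB, and Polr3E (735.8), a subunit of RNA polymerase III. Of Dref, M1BP, Trf2 and Myc 0 of 4 had 1.

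By replicate, translation factor promoters were listed at 39.5%, 37.2% and 4.65% in replicates 1, 2 and 3. The shares of all protein-coding genes were 31.7%, 30.8% and 18.6%. Ribosome biogenesis promoters gave 30.2%, 30.2% and 4.65%, and RNA polymerase I and III promoters 42.3%, 34.6% and 23.1%. The 73 mitochondrial ribosomal protein genes, added after the values were seen, gave 42.5%, 38.4% and 11.0%. Translation factor and mitochondrial ribosomal protein genes were thus above all genes in replicates 1 and 2 and below them in replicate 3. The cytosolic ribosomal protein genes fell on the same sides, so that pattern was not particular to them. A reproducible promoter peak was found at 6 of 92 cytosolic ribosomal protein genes (6.52%), against 12 of the 73 mitochondrial ones (16.4%). No difference between these lists was tested.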

How the data were processed

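The members and gene lists were chosen with earlier results of these data known. The authors made a candidate list from the alignment of each replicate plus a second file, and a pooled list from all 3 alignments plus another, per the labels' file descriptions. Thresholding the irreproducible discovery rate gave the reproducible list. The sources used here name no aligner or peak caller. The signal score is the authors' deposited value on an unstated scale and served only within 1 list. The −log10 q-value, also deposited, describes single peaks. The deposited offset of the summit from the region's start gave its position (1-based, dm6). Intervals are Wilson intervals over genes and cover counting error only; read depth is unknown.

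Genes and TSSs came from Ensembl release 115 (BDGP6 annotation 54) on 7 arms, and sequence from the Release 6 assembly. A summit counted for every gene with a TSS of a coding transcript within 500 bp, or with its span within 2 kb. Support was an overlap of at least 1 bp. There is 1 group, so no test was made; shares are set beside those of all protein-coding genes. Gene counting was tested on simulated data, where 200 of 200 planted promoter summits among 2000 genes were recovered. Genes named are those with a reproducible peak, the 10 next by pooled score, their paralogues, the genes nearest to their peaks and up to 3 per related list; others are said to be named after their values were seen. Of the related lists 3 biogenesis and 4 polymerase symbols were unmatched, and eIF5A was matched as eEF5. The flank peak of 1 member and 1 sequence are not reported here. Lists in build dm3 were not used. Python 3.11.15, numpy 2.4.6, pandas 2.3.3, scipy 1.17.1 and matplotlib 3.10.9 were used.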

Additional observations from a re-analysis of the deposited data

How the results depend on the processing

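The count of 6 genes with a reproducible promoter peak was 4 with a 250 bp window and 8 with 1000 bp, where all genes gave 6.04% and 12.1%. It was 3 among the 2528 strongest peaks and 2 for peaks in all 3 top lists (all genes 6.56% and 5.36%). Keeping only peaks listed in both replicates other than the one left out gave 3 to 6 genes, with 3 without replicate 1, 3 without replicate 2 and 6 without replicate 3. In the same order all genes gave 6.4%, 6.34% and 9.3%. The count of 14 in the body or flanks was 9 with 1 kb, 23 with 5 kb, 0 in the body alone, 9 among the 2528 strongest, 5 in all 3 top lists, 6 by nearest TSS only, and 5 to 14 leaving out each replicate. The pooled count of 21 was 7 without replicate 1, 9 without replicate 2 and 19 without replicate 3, and 15 to 24 under its other settings. For most settings of the body or flank count and the pooled count, the share of all genes was not computed. A change in those counts therefore cannot be called particular to ribosomal protein genes. The median score of 205.8 ranged from 187.6 to 248.9. The nearest-TSS assignment was added after the data were seen. With depth unknown, an unlisted promoter is not shown to be free of CG4318. The cause of these changes was not tested beyond what each setting removes.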
